A study of Macaca mulatta with 38 samples.

Results

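The genes described here are 42 genes in which rare damaging variants have been tied to autism, measured in cultured cortical progenitor cells of rhesus macaque fetuses. They were chosen by name from the human genetics of autism, out of 34619 genes in the count table. No expression value is part of that rule, but the list was drawn up with earlier results of these data known. All 42 passed the filter on low counts, among 20794 genes that could be tested. They were grouped by the role of their protein into 18 chromatin regulators, 8 transcription factors or cofactors, 5 regulators of RNA or protein, 4 signalling genes and 7 genes of the synapse, membrane or cytoskeleton. The 26 chromatin and transcription regulators were set beside the 11 synaptic and signalling genes.

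The study took wild-type neural stem cells from the fetal cortex at embryonic days 42 and 77 and followed them in 4 culture series, named by age and region as E77 Frontal, E77 Occipital, E42 Anterior and E42 Posterior. Fibroblast growth factor FGF2 was given through day 5, and differentiation was then started by withdrawing it and moving the cells to Neurobasal medium with B27, BDNF and a second neurotrophin. Libraries were grouped into a stem phase (days 1, 3 and 5), a transition phase (days 6, 7 and 8) and a terminal phase (days 11, 14 and 17, and at E77 also day 20). Each series and day had 1 of the 38 libraries, made from RNA of 2 wells, so the days of a phase served as its replicates. The labels do not say that libraries came from separate animals, so p-values measure the spread between days of a culture. Age and region cannot be told apart from the fetus each culture came from, its dissection or its run.

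Many genes found in autism sequencing studies fall into a set that acts in the nucleus and a set that acts at the synapse. The nuclear set holds chromatin remodellers, histone-modifying enzymes and transcription factors that progenitors already use. The synaptic set holds scaffolds, membrane anchors and adhesion molecules that belong to more mature neurons. Signalling members such as TSC1, TSC2 and NF1 restrain the mTOR and Ras pathways, which control cell growth.

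Library totals ran from 20149635 to 56363300 counts, with a median of 27597365.5. Summed levels of 12 neuron markers, as CPM (counts scaled to a common library size), were 1580 to 3402 in the stem phase and 4364 to 7392 in the terminal phase, and those of 10 cell division markers were 1850 to 3366 and 681 to 1801. E42 Anterior stood apart from its label, with 8 mesenchyme markers at 14025 to 39448 CPM in sum, against 47.9 to 355 in the other series. The counts over all members for the phases and the ages are also given without it, and so are the values of some single members, but not of all. For the ages that fit sets E77 Occipital against E42 Posterior alone, so E77 Frontal is left out too. Microglia markers (4 genes) summed to at most 1.2 CPM, and the blood markers found (2 genes) to at most 0.0568 CPM. In bulk RNA, fewer cells of a type and less RNA per cell cannot be told apart.

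Transcript length moved with the comparisons. Of the 42 members, 28 had gene lengths of 8 kb or more, as recovered from the count and RPKM tables. The 1502 tested genes of that length had a median deviation from -0.30 on the log2 scale on day 1 of E42 Anterior to 0.24 on day 11 of E77 Occipital, relative to each gene's mean over the libraries. Its part in the members' changes was not tested. The counts over all members, and some of those by role, are also given after the length trend of each library was removed, an alternative chosen after seeing the data.

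Levels between genes were compared in RPKM, which divides the count by gene length and library total. The median level over the 38 libraries was 25.7 RPKM for the middle of the chromatin regulators and 15.9 for the transcription factors. It was 22.2 for the signalling genes, 14.5 for the RNA and protein regulators and 3.05 for the synapse, membrane and cytoskeleton genes, against 4.66 for all genes tested. Among chromatin regulators, ADNP, a homeobox zinc finger protein of a chromatin remodelling complex, was the highest at 75.5 RPKM and MBD5, a methyl-CpG-binding domain protein, the lowest at 6.25. TCF4, a basic helix-loop-helix factor, led the transcription factors at 67.6 RPKM, and MEF2C, a MADS-box factor of neurons and muscle, was lowest there at 1.94.

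TRIP12, a ubiquitin ligase, was the highest RNA or protein regulator at 31.7 RPKM and TLK2, a kinase that acts on histone chaperones, the lowest at 12.9. The kinase DYRK1A led the signalling genes at 30.6 RPKM, and TSC1, a subunit of the tuberous sclerosis complex that holds back mTOR, was lowest at 13.4. NCKAP1, a subunit of the WAVE complex that drives actin branching, stood at 35.2 RPKM, while DSCAM, an immunoglobulin-type adhesion molecule, was the lowest of all members at 1.16. The genes with low levels also spanned the widest ranges. SHANK1, MEF2C, DSCAM and SHANK2 had a highest library 81.6, 58.5, 52.9 and 27.1 times their lowest, on the CPM scale. TRIP12 varied least, 1.32 times, and the middle value was 2.21 times over the members and 3.34 times over all genes tested.

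**Figure D1:**
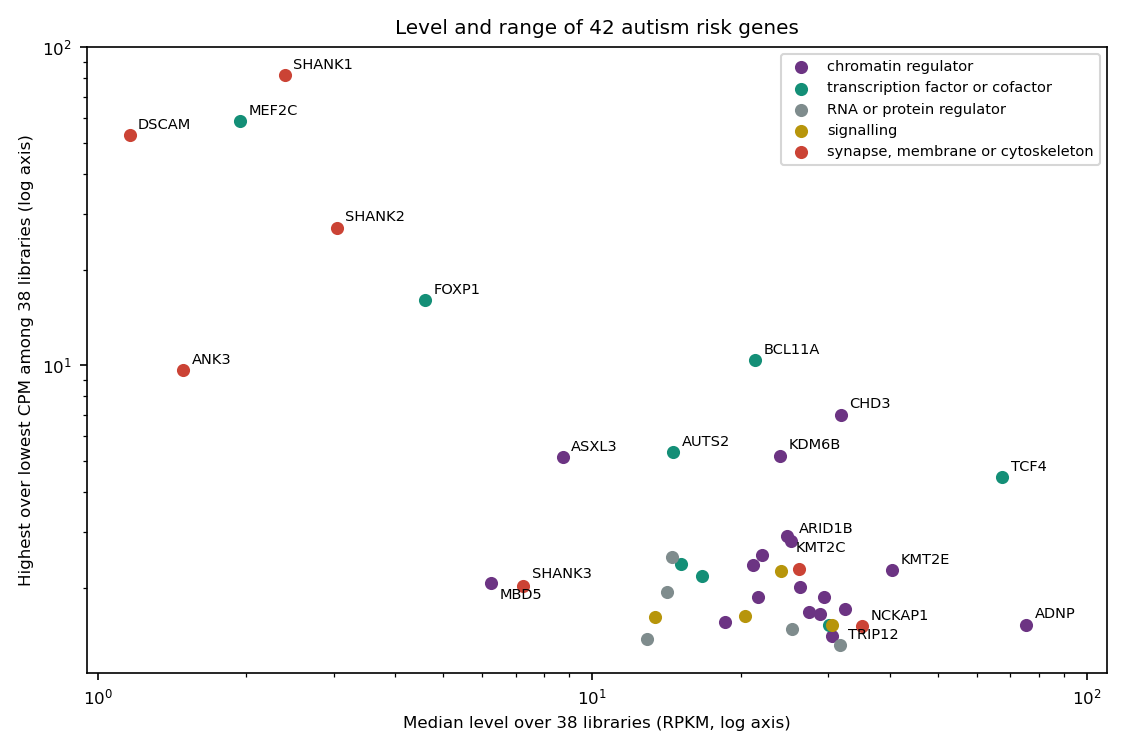
Median level over 38 libraries (x axis, RPKM, log scale) and the ratio of the highest to the lowest CPM (y axis, log scale) of the 42 genes, 1 point a gene, coloured by role. ADNP and TCF4 lie to the right at 75.5 and 67.6 RPKM, and SHANK1, MEF2C and DSCAM lie at the upper left with ranges of 81.6, 58.5 and 52.9 times.

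The first comparison asked how the members differed between proliferation with FGF2 and the end of differentiation. In the mean of the 4 series, 27 of 42 members were higher in the terminal than in the stem phase, against 31.9% of all genes tested, and 6 were lower, against 30.4% (edgeR quasi-likelihood test, Benjamini-Hochberg adjusted p under 0.05). MEF2C, DSCAM, SHANK2, SHANK1, BCL11A, ASXL3 and ANK3 rose most, by 1.07 to 2.67 on the log2 scale, and the chromatin regulators other than ASXL3 lay between -0.21 and 0.81. The median change of the members was 0.25, and 7 of them moved by more than 1, as did 3352 of the 20794 genes tested.

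Of the 26 chromatin and transcription regulators, 17 were higher and 5 lower, with a median of 0.28. Of the 11 synaptic and signalling genes, 9 were higher and 0 lower at either the adjusted or the unadjusted threshold and also with DESeq2, with a median of 0.33. By finer role, the median was 1.07 for the 7 synapse, membrane and cytoskeleton genes and 0.65 for the 8 transcription factors. It was 0.18 for the 18 chromatin regulators, 0.19 for the 4 signalling genes and 0.04 for the 5 RNA and protein regulators, and 0.00 over all genes tested. The difference between the regulators and the synaptic and signalling genes was described by these counts and medians only.

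After removal of the length trend, 20 members were higher, all of them among the 27, and 11 were lower, among them all of the 6. Of the 20794 genes tested, 6357 were then higher and 6642 lower. The regulators then stood at 13 higher and 8 lower and the synaptic and signalling genes at 7 higher and 1 lower. Genes of 8 kb or more had a median change of 0.17, with 49.7% higher and 24.6% lower. Of the 28 members of that length 19 were higher and 4 lower. Without E42 Anterior, 23 members were higher and 9 lower, with 15 and 7 among the regulators and 8 higher among the synaptic and signalling genes. Over all genes tested, 6512 were higher and 5982 lower in that fit. MEF2C, DSCAM, SHANK2, BCL11A and ASXL3 then stood at 2.76, 2.45, 2.54, 1.70 and 1.66, and SHANK1 at 2.96. A fit on 1 value per day, averaged over the series, left 23 higher and 2 lower, against 5174 and 4604 of the 20794 genes tested.

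**Figure D2:**
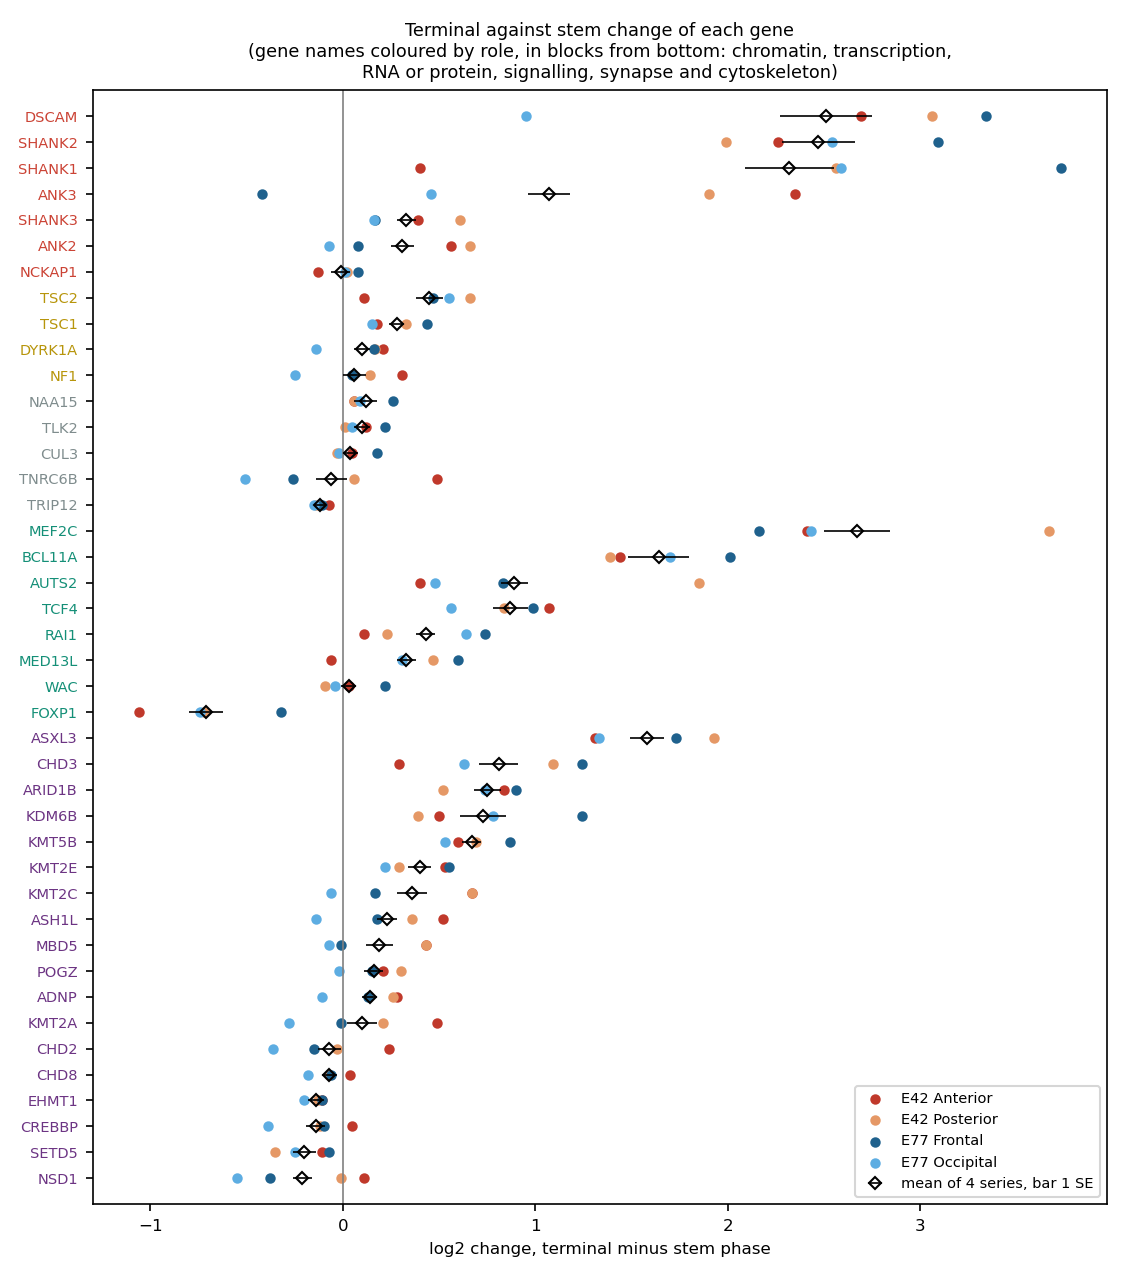
Terminal minus stem log2 change (x axis) of each of the 42 genes (y axis, grouped and coloured by role), with 1 coloured point per series and an open diamond with a bar of 1 SE for the mean of the 4 series. MEF2C, DSCAM, SHANK2 and SHANK1 lie farthest right at 2.67 to 2.32, FOXP1 lies farthest left at -0.71, and the series are widely apart for ANK3 and SHANK1.

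The SHANK proteins are scaffolds that organise the postsynaptic density of excitatory synapses. SHANK2 had 4.76 CPM in its lowest, 18.4 in its median and 30.9 in its highest stem library, and 30.1, 81.5 and 129 CPM in the terminal libraries. The single terminal library within the stem range was day 11 of E77 Frontal, and within each series all terminal days were above all stem days. Its log2 change was 2.47 (SE 0.19, 12 stem and 14 terminal libraries, adjusted p = 2.9e-12), and it rose in 4 of 4 series.

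SHANK1 ran from 1.12 CPM through 7.76 to 35.7 in the stem phase and from 5.82 through 36.3 to 91 in the terminal phase, with overlapping phases. In E77 Frontal it had 1.12, 1.28 and 1.81 CPM on days 1, 3 and 5, and 5.82, 10.7, 23.3 and 34.2 on days 11, 14, 17 and 20. In E42 Anterior it had 30.7, 35.7 and 30.3 CPM in the stem phase and 27.2, 47.7 and 52.4 in the terminal phase, which overlap. The mean log2 change was 2.32 (SE 0.23, adjusted p = 5.2e-10). Single series gave 3.73 for E77 Frontal, 2.59 for E77 Occipital, 2.56 for E42 Posterior and 0.40 for E42 Anterior (SE 0.42, adjusted p = 0.50). SHANK3, the third scaffold, rose by 0.33 (SE 0.05, adjusted p = 3.8e-06), from a stem median of 44.1 CPM to a terminal median of 55.4, with overlapping groups.

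DSCAM had 1.45, 5.84 and 18.5 CPM as lowest, median and highest stem values and 9.48, 33.3 and 76.5 as terminal values. Its mean log2 change was 2.51 (SE 0.24, adjusted p = 4.4e-10). In E77 Occipital it stood at 18.5, 10.1 and 5.21 CPM on days 1, 3 and 5 and reached 19.4, 23.7 and 33.8 on days 14, 17 and 20. The groups of that series overlapped, and its change of 0.95 did not pass (SE 0.44, adjusted p = 0.088).

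ANK3 encodes ankyrin-G, the organiser of the axon initial segment. In E42 Anterior it had 28.4, 24.5 and 30.3 CPM in the stem phase and 121, 145 and 159 in the terminal phase, and in E42 Posterior 34.8, 45.7 and 39.5 followed by 106, 157 and 187. In E77 Frontal it had 64.1, 59.9 and 46.8 CPM in the stem phase and 38.1, 37.4, 39.5 and 55.2 in the terminal phase. The phases did not overlap in either E42 series, whereas they overlapped at E77. Log2 changes were 2.35 and 1.90 in E42 Anterior and Posterior, and -0.42 (SE 0.21, adjusted p = 0.11) and 0.46 (SE 0.21, adjusted p = 0.089) in E77 Frontal and Occipital. The mean over the series was 1.07 (SE 0.11, adjusted p = 1.2e-09), and 0.65 without E42 Anterior.

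ANK2, which encodes the membrane anchor ankyrin-B, rose by 0.31 in the mean (SE 0.06, adjusted p = 7e-05). The rise passed at E42, by 0.56 and 0.66, and the E77 values were 0.08 and -0.07. The call for ANK2 ended when the length trend was removed, at 0.08. NCKAP1 stood at -0.01 (SE 0.05, adjusted p = 0.92), with medians of 183 CPM in the stem and 186 in the terminal phase.

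MEF2C, a factor of maturing cortical neurons, was the member with the largest change. Its stem libraries ran from 3.83 CPM through 10.7 to 22.5 and its terminal libraries from 15.1 through 55.8 to 224. In E42 Posterior it climbed from 13.3 CPM on day 5 to 54.4, 145 and 224 on days 11, 14 and 17. In each series all terminal days lay above all stem days, and the mean log2 change was 2.67 (SE 0.17, adjusted p = 1.3e-13), with 2.16 to 3.67 in single series.

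BCL11A, a zinc finger protein of cortical projection neurons, had stem values of 18.1, 35.9 and 82.5 CPM and terminal values of 71.6, 117 and 188 as lowest, median and highest. Most of its change was reached early, as its transition median was 103 CPM. Part of it came before FGF2 was withdrawn. From day 1 to day 5 it went from 23.3 to 66.2 CPM in E42 Anterior and from 43.8 to 82.5 in E42 Posterior. In E77 Frontal it went from 18.1 to 50.9, and in E77 Occipital from 20.7 to 34.8. The mean log2 change was 1.64 (SE 0.16, adjusted p = 3.7e-10), and it rose in 4 of 4 series.

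AUTS2, a nuclear protein of a variant Polycomb complex, rose by 0.89 (SE 0.07, adjusted p = 1.3e-11), from a stem median of 110 CPM to a terminal median of 178. Its change was 1.85 in E42 Posterior, where terminal days had 327, 365 and 424 CPM. The other series gave 0.83 for E77 Frontal, 0.48 for E77 Occipital and 0.40 for E42 Anterior. TCF4 rose by 0.87 (SE 0.09, adjusted p = 3e-09) from a median of 564 to 992 CPM, and it passed in all 4 series. It rose within the stem phase as well. From day 1 to day 5 it went from 313 to 621 CPM in E42 Anterior and from 530 to 775 in E42 Posterior. In E77 Frontal it went from 318 to 561, and in E77 Occipital from 567 to 864.

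RAI1, a regulator deleted in Smith-Magenis syndrome, rose by 0.43 (SE 0.05), with the calls in E77 Frontal and Occipital at 0.74 and 0.64. MED13L, of the Mediator kinase module, rose by 0.33 (SE 0.05). WAC, an adaptor of histone ubiquitination at transcribed genes, stood at 0.03 (SE 0.04, adjusted p = 0.59).

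FOXP1, a forkhead factor, was the member that fell most. E42 Anterior, the series with mesenchyme markers, held 116, 98.9 and 62.4 CPM on days 1, 3 and 5 and 33.6, 46.7 and 52.8 on days 11, 14 and 17. E42 Posterior held 15, 14.6 and 14.8 CPM in the stem and 10.4, 9.23 and 7.27 in the terminal phase. The phases did not overlap in either series, and the mean log2 change was -0.71 (SE 0.09, adjusted p = 1e-07), or -0.59 without E42 Anterior. The value in E77 Frontal was -0.32 (SE 0.18, adjusted p = 0.17).

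**Figure D3:**
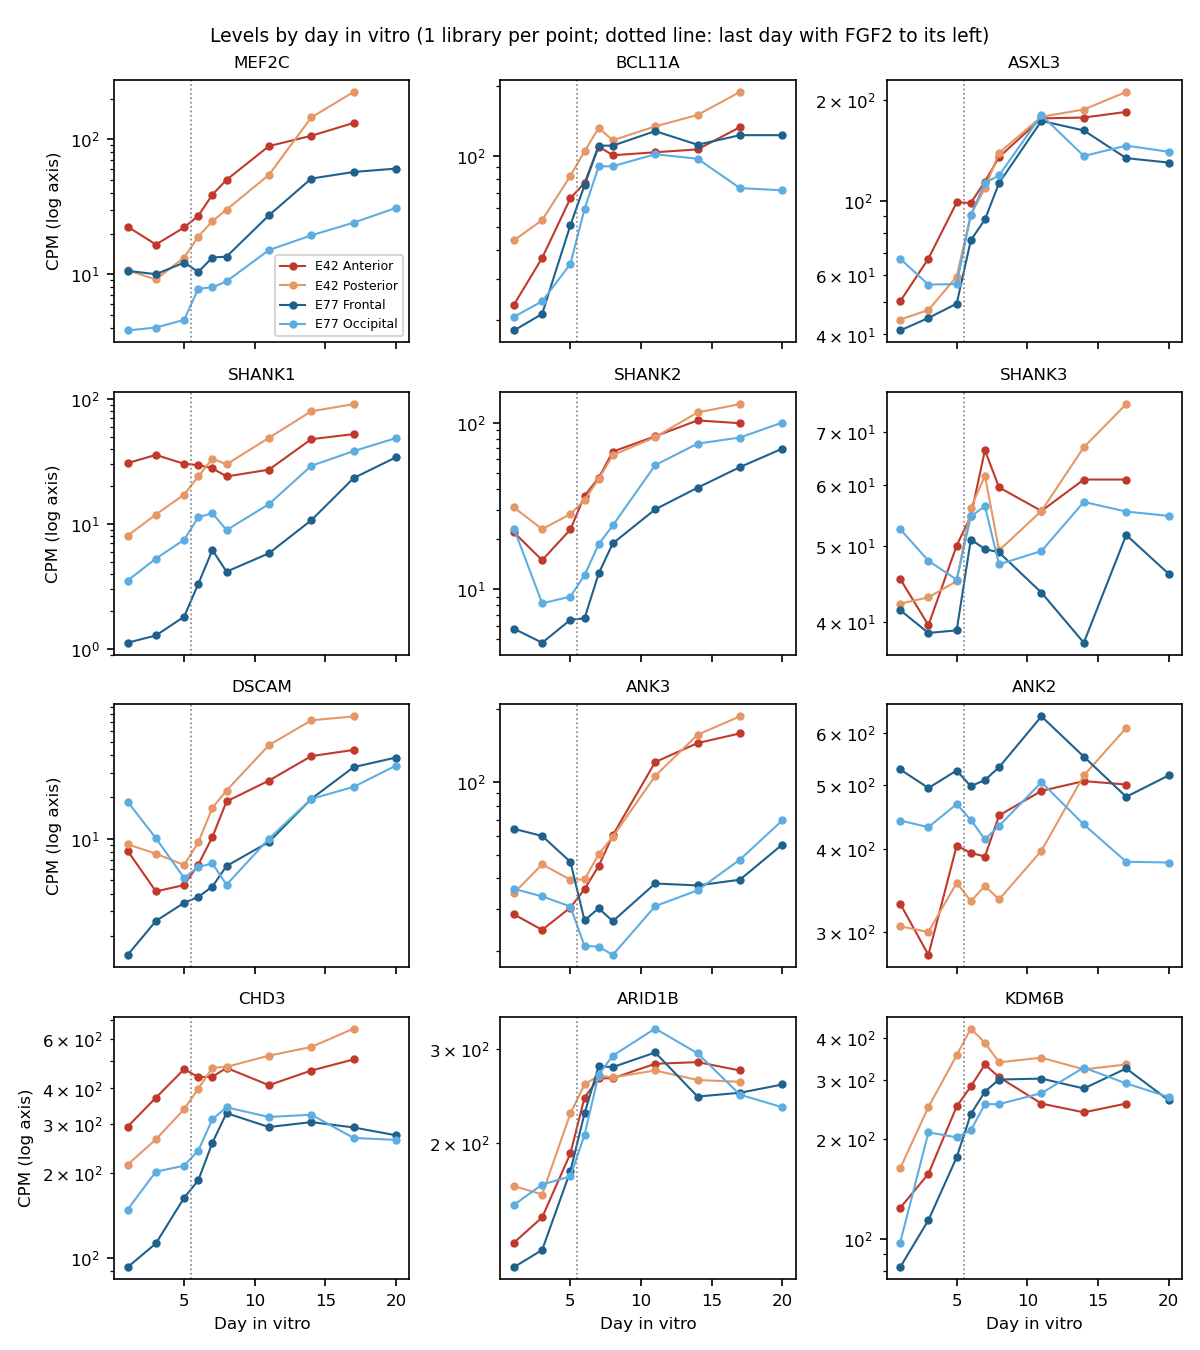
Level in CPM (y axis, log scale, its own range in each panel) by day in vitro (x axis) of 12 genes, 1 point per library and 1 line per series, with a dotted line after day 5. MEF2C, SHANK2 and ASXL3 climb in all 4 series, whereas ANK3 climbs past 100 CPM in both E42 series and ends at 55.2 and 69.5 CPM in the E77 series.

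Of the 18 chromatin regulators, 11 rose and 4 fell, with a median of 0.18. With the length trend removed, 7 were higher and 7 lower, with a median of 0.00. ASXL3, a Polycomb-associated protein, rose most. Its stem libraries had 41.1 CPM as the lowest, 53.3 as the median and 98.9 as the highest value, and its terminal libraries 130, 175 and 211. No stem library reached a terminal one, and the log2 change was 1.58 (SE 0.09, adjusted p = 1.5e-14), between 1.31 and 1.93 in single series.

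CHD3, an ATP-dependent remodeller of the NuRD complex, rose by 0.81 (SE 0.10, adjusted p = 1.2e-08). Its calls were in E42 Posterior, E77 Frontal and E77 Occipital, at 1.09, 1.24 and 0.63, and E42 Anterior stood at 0.29 (SE 0.19, adjusted p = 0.27). ARID1B, a subunit of the BAF remodelling complex, had 117, 163 and 227 CPM as lowest, median and highest stem values and 233, 267 and 327 as terminal values, with no overlap. It rose by 0.75 (SE 0.07, adjusted p = 4.1e-10).

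KMT5B, a histone methyltransferase, also showed no overlap, with 84.2 to 134 CPM in the stem and 146 to 199 in the terminal phase, and rose by 0.67 (SE 0.05, adjusted p = 7.1e-13). The histone demethylase KDM6B rose by 0.73 (SE 0.12, adjusted p = 7.6e-06), from a stem median of 170 to a terminal median of 288 CPM. Its calls were in the E77 series, at 1.24 in Frontal and 0.78 in Occipital, against 0.50 and 0.39 at E42, which did not pass. KDM6B also climbed while FGF2 was given. E42 Anterior had 124, 157 and 250 CPM on days 1, 3 and 5, against 240 to 255 in the terminal phase. E42 Posterior had 163, 249 and 356, against 323 to 350. E77 Frontal had 82.4, 114 and 176 against 261 to 325, and E77 Occipital 97.6, 209 and 202 against 267 to 327.

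Smaller rises passed for KMT2E, a SET domain protein, at 0.40 (SE 0.06), and for the methyltransferases KMT2C, at 0.36 (SE 0.08), and ASH1L, at 0.23 (SE 0.05). They also passed for MBD5 at 0.19, for POGZ, a heterochromatin-binding zinc finger protein, at 0.16, and for ADNP at 0.14. The calls for ASH1L, MBD5, POGZ and ADNP ended when the length trend was removed, at 0.02, -0.02, -0.02 and 0.07. The call for MBD5 also ended in 9 of the 38 fits without 1 library.

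The 4 chromatin regulators that fell did so by small amounts. NSD1, the methyltransferase lost in Sotos syndrome, fell by 0.21 on the log2 scale (SE 0.05, adjusted p = 0.00042), with calls of -0.38 and -0.55 in E77 Frontal and Occipital and values of 0.11 and -0.01 at E42. SETD5, a SET domain protein, stood at -0.20 (adjusted p = 0.0036), EHMT1, a methyltransferase of repressed chromatin, at -0.14 (adjusted p = 0.0068) and the acetyltransferase CREBBP at -0.14 (adjusted p = 0.02). Stem and terminal libraries of these genes overlapped, for example 98.5 to 124 against 86.2 to 109 CPM for EHMT1. With 1 value per day, the calls of SETD5, EHMT1 and CREBBP ended, at adjusted p = 0.151, 0.166 and 0.183.

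CHD8 and CHD2, chromodomain helicases, and the methyltransferase KMT2A did not pass in the mean of the series. Their log2 changes were -0.07 (SE 0.04), -0.07 (SE 0.06) and 0.10 (SE 0.08). After removal of the length trend, CHD8, CHD2 and KMT2A passed as lower, at -0.23, -0.30 and -0.14.

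All 4 signalling genes sit in growth control. TSC2, the partner of TSC1, rose by 0.45 (SE 0.07, adjusted p = 1.4e-06), from a median of 169 to 238 CPM with overlapping phases. TSC1 rose by 0.28 (SE 0.04, adjusted p = 5.4e-07), from 104 to 129 CPM, and DYRK1A by 0.10 (SE 0.04, adjusted p = 0.029), a call that ended in 19 of the 38 fits without 1 library. NF1, which switches off Ras, stood at 0.06 (SE 0.06, adjusted p = 0.33) and passed as lower, at -0.15, with the length trend removed.

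Among the RNA and protein regulators, TRIP12 fell by 0.12 on the log2 scale (SE 0.03, adjusted p = 0.0027), a call that ended with 1 value per day at adjusted p = 0.134. TLK2 rose by 0.10 (SE 0.04, adjusted p = 0.034), which ended in 21 of the 38 fits without 1 library. TNRC6B, an Argonaute partner in microRNA silencing, stood at -0.06 (SE 0.08), the ubiquitin ligase scaffold CUL3 at 0.04 (SE 0.04), and NAA15, the auxiliary subunit of an N-terminal acetyltransferase, at 0.12 (SE 0.06), none past the threshold. TNRC6B passed as lower, at -0.33, with the length trend removed.

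Within single series, members rose in 21 cases in E42 Anterior, against 17.9% of genes tested, and 1 fell, against 16.2%. In E42 Posterior, 22 rose (21.5% of genes tested) and 2 fell (17.8%). In E77 Frontal, 20 rose (22.5%) and 1 fell (20.7%), and in E77 Occipital 14 rose (21.6%) and 6 fell (19.6%). The members that rose in 4 of 4 series were ARID1B, KMT5B, ASXL3, TCF4, MEF2C, BCL11A, AUTS2 and SHANK2. The call for AUTS2 in E42 Anterior ended in 18 of the 38 fits without 1 library. EHMT1, TRIP12, NAA15 and NCKAP1 passed in no single series in either direction.

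These counts changed when single libraries were left out or when the length trend was removed. The 6 lower members of E77 Occipital became 12 without day 11 and 3 without day 3. The 1 of E77 Frontal became 3 without day 11 and 2 without day 20, and the 2 of E42 Posterior became 1 without day 3, 14 or 17. The E77 Occipital rises of AUTS2, MED13L, KDM6B, CHD3 and TCF4 did not pass without its day 1. Removing the length trend left 14 higher and 13 lower members for E77 Occipital, against 17 and 3 for E77 Frontal. It left 13 and 11 in E42 Posterior, and 11 and 8 in E42 Anterior. Over the 20794 genes tested, the same removal gave 4466 higher and 4150 lower for E77 Occipital and 4704 and 4452 for E77 Frontal. It gave 3901 and 4218 for E42 Posterior, and 3361 and 3802 for E42 Anterior.

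The steps before and after the transition phase were then compared. From the stem to the transition phase, 24 members were higher, against 21.6% of genes tested, and 1 was lower, against 20%. From the transition to the terminal phase, 11 members were higher, against 22.7%, and 5 were lower, against 19.2%. Chromatin regulators had 11 higher and 0 lower in the first step by edgeR, then 2 higher and 4 lower, and the count of lower ones in the first step was also 0 at an unadjusted p under 0.05 and with DESeq2. After removal of the length trend, they had 8 higher and 4 lower in the first step and 2 and 7 in the second. The 7 synapse, membrane and cytoskeleton genes had 3 higher in the first step and 5 in the second, with medians of 0.31 and 1.24. Without the length trend they had 3 higher and 3 lower in the first step, with a median of 0.20.

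In the first step BCL11A rose by 1.37 (SE 0.16, adjusted p = 1.6e-07). SHANK2 rose by 0.93 (SE 0.18), ASXL3 by 0.93 (SE 0.09) and SHANK1 by 0.92 (SE 0.23, adjusted p = 0.0019), and FOXP1 alone fell, by 0.59 on the log2 scale (SE 0.10, adjusted p = 1.5e-05). Without E42 Anterior the value for FOXP1 was -0.36. The call for SHANK1 ended with 1 value per day, at adjusted p = 0.0521. All 4 signalling genes passed as higher in the first step, by 0.10 to 0.27, and 0 of them with the length trend removed or with 1 value per day. The call for DYRK1A ended in 21 of the 38 fits without 1 library.

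In the second step DSCAM rose by 1.98 (SE 0.24, adjusted p = 1.6e-07), MEF2C by 1.86 (SE 0.16), SHANK2 by 1.54 (SE 0.18) and SHANK1 by 1.40 (SE 0.21). ANK3, at -0.17 in the first step (adjusted p = 0.25) and at -0.48 without E42 Anterior (adjusted p = 0.0052), rose by 1.24 in the second (SE 0.11, adjusted p = 2.2e-09). EHMT1 fell by 0.25 on the log2 scale (SE 0.04), SETD5 by 0.19 (SE 0.06), CREBBP by 0.19 (SE 0.05) and NSD1 by 0.17 (SE 0.05), and TRIP12 by 0.09.

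The counts of the steps also changed when the length trend was removed and when the day was taken as the unit. With the length trend removed, 16 were higher and 10 lower in the first step and 10 and 10 in the second. Over the 20794 genes tested the counts were 3962 and 4585, then 4770 and 4158. With 1 value per day, 14 were higher and 1 lower in the first step, and 7 and 0 in the second. The counts over all genes were then 2197 and 1872, and 1578 and 1274. Without E42 Anterior, the first step had 19 higher and 2 lower and the second 12 and 6. All genes tested then had 3920 and 3567 in the first step and 4644 and 3876 in the second. The 5 lower members of the second step became 8 without day 11 of E77 Occipital.

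The next comparison set E77 against E42 cultures with the day as a block. Day 20 was sampled only at E77, so its libraries are part of the E77 ranges below but, under the block, add nothing to the differences. In the stem phase, 12 members were higher at E77, against 28.8% of genes tested, and 16 were lower, against 31.4%. In the terminal phase 0 were higher, against 20.6%, and 17 were lower, against 24.4%. At an unadjusted p under 0.05, 1 member was higher in the terminal phase, and DESeq2 also found 0 and limma 2. Among the 8 transcription factors, 7 were lower at E77 in the stem phase and 5 in the terminal phase.

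**Figure D4:**
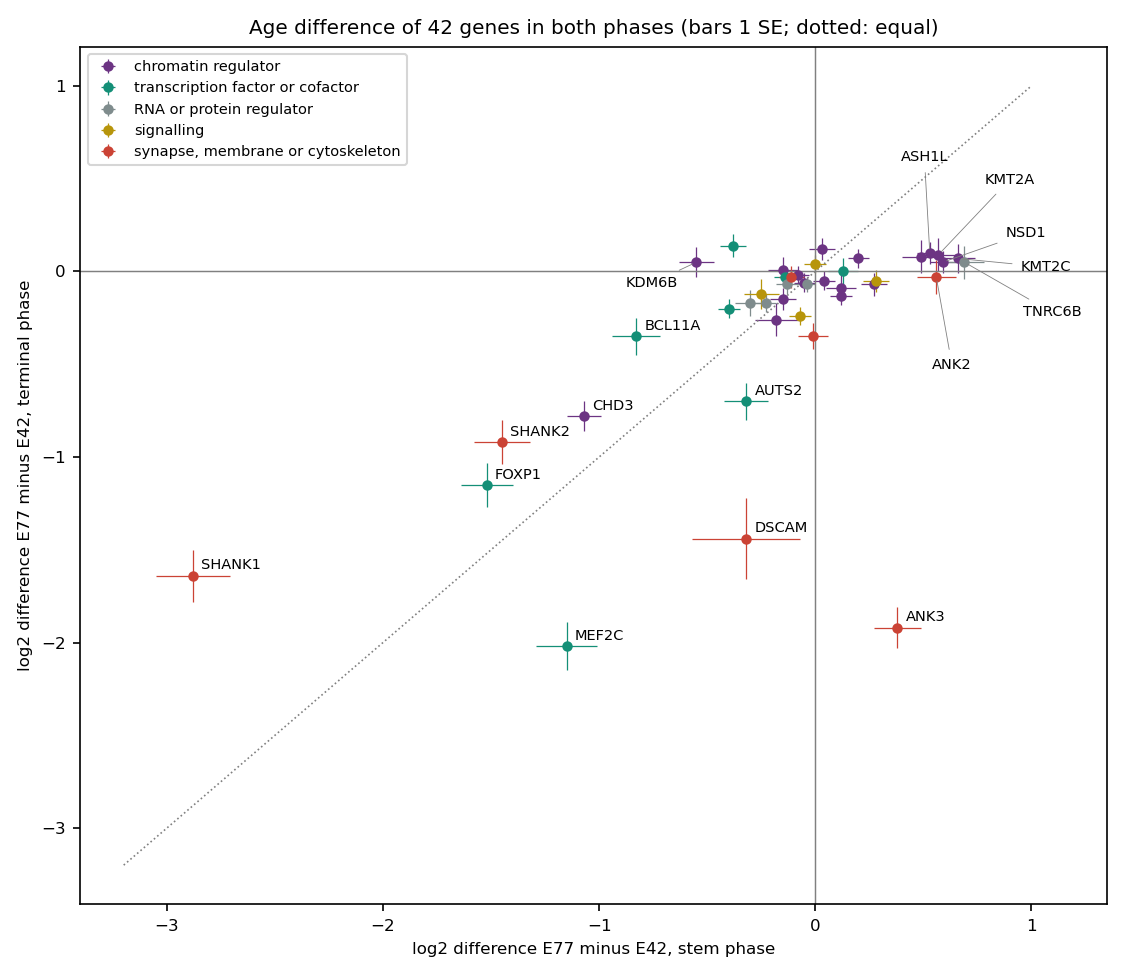
Log2 difference E77 minus E42 in the stem phase (x axis) and the terminal phase (y axis) of the 42 genes, with bars of 1 SE, coloured by role, and a dotted line where both are equal. TNRC6B, KMT2C, NSD1 and KMT2A lie right of 0 at 0.57 to 0.69 and near 0 on the y axis, and ANK3 stands at 0.38 and -1.92.

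SHANK1 differed most in the stem phase. Its E42 libraries had 8.06, 23.7 and 35.7 CPM as lowest, median and highest value and its E77 libraries 1.12, 2.66 and 7.47, with no overlap. The log2 difference was -2.88 (SE 0.17, 6 against 6 libraries, adjusted p = 1.3e-12), and -1.18 between E77 Occipital and E42 Posterior alone. In the terminal phase it was -1.64 (SE 0.14), with 27.2 to 91 CPM at E42 and 5.82 to 48.7 at E77.

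SHANK2 had stem medians of 22.8 CPM at E42 and 7.37 at E77, a log2 difference of -1.45 (SE 0.13, adjusted p = 2.1e-09). Day 1 of E77 Occipital, at 23.1 CPM, lay within the E42 range of 14.9 to 30.9. MEF2C had a median of 15 CPM at E42 and 7.31 at E77 in the stem phase (-1.15, SE 0.14), and 119 against 29.2 CPM in the terminal phase. The terminal difference of -2.02 (SE 0.13, adjusted p = 2.3e-12) was the largest of the members at that phase, although the highest E77 value of 60.6 CPM exceeded the lowest E42 value of 54.4. Between E77 Occipital and E42 Posterior alone, MEF2C stood at -1.40 for the stem and -2.68 for the terminal phase, and SHANK2 at -1.11 and -0.65, all past the threshold.

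CHD3 was lower at E77 in both phases, at -1.07 (SE 0.08) and -0.78 (SE 0.08), with 411 to 652 CPM at E42 and 263 to 323 at E77 in the terminal phase. Those series alone gave -0.52 and -0.94 for CHD3. BCL11A was also lower in both, at -0.83 (SE 0.11) and -0.35 (SE 0.10), the latter not past the threshold without day 17 of E77 Occipital or without the day block (adjusted p = 0.13). FOXP1 was at -1.52 in the stem phase (SE 0.12), where E42 Anterior held 62.4 to 116 CPM and mesenchyme markers. Between E77 Occipital and E42 Posterior alone, FOXP1 stood at 0.010 in the stem phase (adjusted p = 0.971), and at 0.05 in the terminal phase, where the full comparison gave -1.15 (SE 0.12).

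In the terminal phase ANK3 had 106, 151 and 187 CPM as lowest, median and highest value at E42 and 30.7, 38.8 and 69.5 at E77, with no overlap. The log2 difference was -1.92 (SE 0.11, 6 against 6 libraries on the shared days, adjusted p = 3.2e-13), and -1.92 between E77 Occipital and E42 Posterior alone. In the stem phase ANK3 was higher at E77, by 0.38 (SE 0.11, adjusted p = 0.0035), with 24.5 to 45.7 against 30.6 to 64.1 CPM. That stem difference turned to -0.25 with the length trend removed (adjusted p = 0.028), and to -0.26 between E77 Occipital and E42 Posterior alone (adjusted p = 0.18). DSCAM had a terminal difference of -1.44 (SE 0.22, adjusted p = 1.2e-05), with medians of 45.6 and 21.6 CPM, and a stem difference of -0.32 that did not pass (SE 0.25, adjusted p = 0.27).

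Of the 12 members higher at E77 in the stem phase, 8 were chromatin regulators. TNRC6B, the largest of these differences, had 257, 331 and 350 CPM as lowest, median and highest value at E42 and 432, 472 and 639 at E77, with no overlap and a log2 difference of 0.69 (SE 0.09, adjusted p = 2.1e-07). KMT2C differed by 0.66 (SE 0.08), NSD1 by 0.59 (SE 0.06) and KMT2A by 0.57 (SE 0.09). NSD1 did not overlap between ages, at 235 to 284 and 365 to 426 CPM. ANK2, ASH1L and MBD5 differed by 0.56, 0.53 and 0.49, and NF1, CHD2, POGZ and ADNP by 0.28, 0.27, 0.20 and 0.12. The call for ADNP ended in 22 of the 38 fits without 1 library.

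Genes of 8 kb or more moved with that difference: 44.9% were higher and 26.8% lower at E77 in the stem phase, with a median of 0.13. With the length trend removed, 3 members were higher and 28 lower, against 5369 and 7353 of the 20794 genes tested. Chromatin regulators went from 8 higher and 3 lower to 3 and 9, and synaptic and signalling genes from 3 and 3 to 0 and 7. The values of TNRC6B and KMT2A were then 0.083 and 0.139 and no longer passed (adjusted p = 0.175 and 0.0543). KMT2C, NSD1 and ASH1L remained higher, at 0.20, 0.26 and 0.23, and CHD2 turned to -0.13. In the terminal phase, 0 were higher and 17 lower with the trend removed, and those 17 were the same genes as without the removal. Among all genes tested, 4217 were higher and 5372 lower in that fit.

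**Figure D5:**
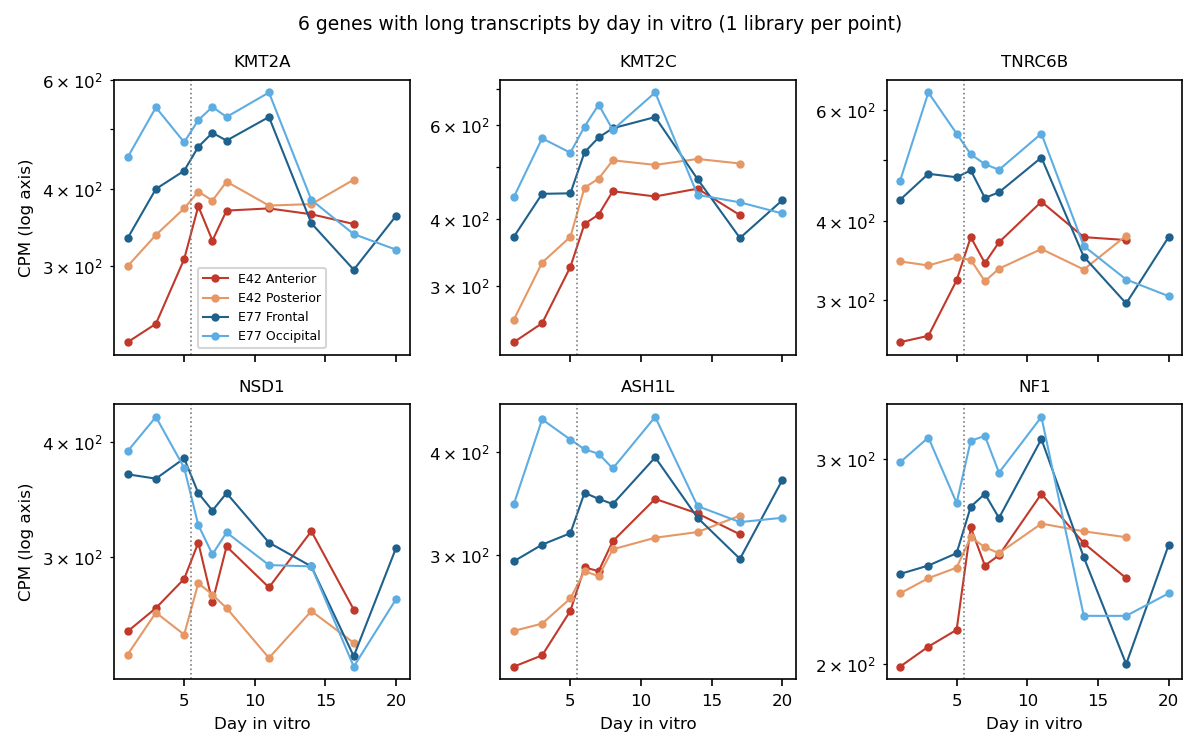
Level in CPM (y axis, log scale, its own range in each panel) by day in vitro (x axis) of KMT2A, KMT2C, TNRC6B, NSD1, ASH1L and NF1, 1 point per library and 1 line per series. The E77 lines lie above the E42 lines on days 1, 3 and 5, and KMT2C goes from 689 CPM on day 11 of E77 Occipital to 444 on day 14.

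Whether the terminal against stem change itself differed with age was tested as a difference of differences. The change was larger at E77 for 7 members, against 13% of genes tested, and smaller for 15, against 13.2%. ANK3 stood farthest apart at -2.30 (SE 0.15, adjusted p = 8.5e-10). DSCAM was at -1.12 (SE 0.33, adjusted p = 0.016), a call that ended without day 5 of E77 Frontal or day 1 of E77 Occipital. MEF2C was at -0.87 (SE 0.18, adjusted p = 0.0012) and TNRC6B at -0.64 (SE 0.12, adjusted p = 0.00038).

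On the other side SHANK1 stood at 1.24 (SE 0.22, adjusted p = 0.00027), KDM6B at 0.61 (SE 0.12), SHANK2 at 0.53 (SE 0.18, adjusted p = 0.03) and RAI1 at 0.53 (SE 0.09). Between E77 Occipital and E42 Posterior alone SHANK1 was at -0.379 (adjusted p = 0.44), so its sign rested on the other series. KDM6B and SHANK2 kept their sign there but did not pass, at 0.425 and 0.46 (adjusted p = 0.0974 and 0.242). The call for SHANK2 ended without day 17 of E42 Anterior, day 3 of E42 Posterior or day 14 of E77 Occipital. BCL11A, CHD3 and MED13L also passed as larger at E77, by 0.48, 0.29 and 0.20, and the calls for CHD3 and MED13L ended in 12 and 9 of the 38 fits without 1 library. CHD3 turned to -0.42 between E77 Occipital and E42 Posterior alone (adjusted p = 0.067).

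Without the day block the calls of MEF2C, DSCAM, KDM6B and SHANK2 ended, at -0.747, -0.734, 0.562 and 0.693 (adjusted p = 0.0975, 0.263, 0.101 and 0.16), and that of BCL11A ended at 0.44 (adjusted p = 0.32). The members with a larger change at E77 then numbered 2, against 1967 of the 20794 genes tested. Genes of 8 kb or more had 14% higher and 32.4% lower calls, with a median of -0.15. With the length trend removed, 11 members had a larger and 5 a smaller change at E77, and TNRC6B stood at -0.056 (adjusted p = 0.617). Over all genes tested, 3233 had a larger and 2313 a smaller change. The 5 members with a smaller change were ADNP, NSD1, MEF2C, ANK3 and DSCAM. The 7 members with a larger change became 4 without day 14 of E77 Occipital.

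The age comparison was repeated between E77 Occipital and E42 Posterior alone, which leaves out the series with mesenchyme markers. In the stem phase 11 members were then higher and 8 lower, in the terminal phase 0 and 14, and for the change 1 was larger and 14 smaller. Of the 20794 genes tested, 4204 were higher and 4289 lower in the stem phase, and 3370 and 4091 in the terminal phase. For the change, 1047 were larger and 1258 smaller. Astrocyte markers moved with age too, with 6 of 6 higher at E77 in the stem phase (median 2.33), and 9 of 12 neuron markers were lower (median -1.29). In the terminal phase 5 of 6 astrocyte (median 2.22) and 6 of 6 oligodendrocyte markers (median 3.90) were higher, and 10 of 10 cell division markers (median -0.49) and 9 of 12 neuron markers (median -0.61) were lower. Their part in the members' differences was not tested. The 0 members higher in the terminal phase became 1 or 2 without day 1, 5 or 14 of E42 Anterior, day 1, 14 or 17 of E77 Frontal, or day 1, 3 or 17 of E77 Occipital.

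The last comparisons set regions of the same age side by side over all days. At E42, 4 members were higher in Anterior than in Posterior cultures, against 25.1% of genes tested, and 20 were lower, against 30.3%. FOXP1 was the largest difference, with 33.2, 46.7 and 116 CPM as lowest, median and highest value in Anterior and 7.27, 12.1 and 15 in Posterior. The groups did not overlap, and the log2 difference was 2.19 (SE 0.10, 9 against 9 libraries, adjusted p = 4.2e-16). All 8 mesenchyme markers were higher in the same direction, with a median of 8.48, and their part in the FOXP1 level was not tested. Neuron markers were lower in 9 of 12 cases and cell division markers in 9 of 10. With the length trend removed, 7 members were higher and 18 lower, against 5481 and 5849 of the 20794 genes tested. This comparison cannot be made without E42 Anterior.

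MEF2C was higher in Anterior by 0.44 (SE 0.10, adjusted p = 0.00067), MED13L by 0.16 (SE 0.04) and NSD1 by 0.14 (SE 0.05). These directions did not hold on every day. On days 14 and 17 MEF2C was lower in Anterior, at 106 and 132 against 145 and 224 CPM. MED13L was lower there on days 11, 14 and 17, at 203, 201 and 188 against 210, 208 and 221 CPM. NSD1 was lower on day 7, at 268 against 273 CPM. DSCAM was lower, at -0.60 (SE 0.18, adjusted p = 0.0074), and so were BCL11A at -0.45 (SE 0.08), KDM6B at -0.42 (SE 0.07) and TCF4 at -0.38 (SE 0.06). Anterior and Posterior ranges of these 7 genes overlapped, as for TCF4 at 313 to 978 and 530 to 1135 CPM. Without the day block, the calls for MEF2C, DSCAM and BCL11A ended (adjusted p = 0.0887, 0.0751 and 0.0552).

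At E77, 4 members were higher in Frontal than in Occipital cultures, against 16.3% of genes tested, and 21 were lower, against 13.8%. MEF2C had 10, 13.4 and 60.6 CPM as lowest, median and highest value in Frontal and 3.83, 8.42 and 31 in Occipital, a log2 difference of 1.03 (SE 0.11, 10 against 10 libraries, adjusted p = 2.6e-08). Frontal was higher on each shared day, though the ranges overlapped. ANK3 was higher by 0.38 (SE 0.08), BCL11A by 0.29 (SE 0.08) and ANK2 by 0.27 (SE 0.07). On days 17 and 20, however, ANK3 was lower in Frontal, at 39.5 and 55.2 against 47.8 and 69.5 CPM. BCL11A was lower there on days 1 and 3, at 18.1 and 21.3 against 20.7 and 24.1 CPM.

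SHANK1 was lower in Frontal, at -1.38 (SE 0.13, adjusted p = 1e-08), with medians of 4.98 and 11.7 CPM, and so was SHANK2, at -0.82 (SE 0.10). DSCAM was at -0.73 (SE 0.19, adjusted p = 0.0053) and TCF4 at -0.52 (SE 0.05, adjusted p = 2e-08). The DSCAM difference was widest on days 1 and 3, at 1.45 and 2.55 CPM in Frontal against 18.5 and 10.1 in Occipital. On days 8, 17 and 20 DSCAM was higher in Frontal, at 6.36, 32.9 and 38.6 against 4.66, 23.7 and 33.8 CPM. All 4 signalling genes were lower in Frontal, at -0.21 to -0.11, and 3 of them with the length trend removed. Without the day block 13 members were lower, against 1936 of the 20794 genes tested, and BCL11A did not pass (adjusted p = 0.202). Removing the length trend gave 4 higher and 22 lower, against 3343 and 3042 of the genes tested. In the same comparison 9 of 10 cell division, 6 of 12 neuron and 5 of 8 mesenchyme markers (median 2.51) were higher in Frontal, and 5 of 6 oligodendrocyte markers were lower (median -1.09). Astrocyte markers (6 genes) summed to 4969 to 6481 CPM in Frontal and 2278 to 2881 in Occipital in the stem phase. In the terminal phase their sums overlapped, at 4936 to 9485 and 3852 to 7602 CPM. The part of these markers in the members' differences was not tested.

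Other genes, called relatives here, were read from fixed lists. They share a family, complex or role with members, or are partners or targets of them. The shares over all genes tested for terminal against stem were 31.9% higher and 30.4% lower. In the terminal against stem comparison, 20 of 26 synapse and cytoskeleton relatives were higher and 3 lower, with a median of 0.66, the list with the largest median of the 5. GRIN2B, an NMDA receptor subunit, stood at 4.66 (SE 0.43) and rose from a mean of 2.01 to 43.4 CPM. The postsynaptic scaffolds DLGAP2 and DLGAP3, partners of SHANK proteins, rose by 2.67 and 2.57, and DSCAML1, the paralogue of DSCAM, by 2.53. Of 19 transcription relatives 10 were higher and 2 lower (median 0.28), with MYT1L, a neuronal zinc finger factor, at 5.46 and TBR1, a factor of deep-layer neurons, at 1.76.

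Of 29 chromatin relatives 6 were higher (20.7%, against 31.9% of all genes tested) and 9 lower (31.0%, against 30.4%), with a median of -0.03. HDAC4, a deacetylase that represses MEF2 factors, rose by 0.88 and SMARCA2, a BAF ATPase, by 0.45, while SMARCC1, a BAF subunit, fell by 0.39 on the log2 scale. The radial glia list had 2 higher and 6 lower of 8 markers, and 2 of 6 oligodendrocyte markers were higher. All 6 astrocyte markers were higher (median 0.63) and 6 of 8 mesenchyme markers lower (median -1.25), and their part in the members' changes was not tested. Signalling relatives were 9 higher and 5 lower of 19, with NFATC4 at -2.35, and RNA and protein relatives 2 higher and 8 lower of 13. ASF1B, a histone chaperone of S phase and a target of TLK kinases, stood at -1.33, and TNRC6C, a paralogue of TNRC6B, at 1.10.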

How the data were processed

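RNA sequencing libraries of 38 cultures were made with a strand-marking (dUTP) kit, per the labels' protocols. The authors aligned reads with STAR and counted them with featureCounts, per the submitters' processing notes; the genome build is not given in the sources used here. The deposited tables hold raw counts per gene and RPKM values, which are scaled by the length of the gene and the depth of the library, both as the authors made them. The members and lists were chosen with earlier results of these data known.

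Counts were tested with edgeR 4.0.16 (R 4.3.3), using TMM scaling, filterByExpr over the 12 groups of series and phase (20794 genes kept, 13825 left out), and the robust quasi-likelihood test, with Benjamini-Hochberg adjustment over all genes tested and a threshold of 0.05. Phases were compared as the mean of the series, with 26 residual degrees of freedom. Ages and regions were compared with the day in vitro as a block, with 19. The day pairs libraries because the labels give it: over 55 pairs of same-day libraries, deviations correlated from -0.1 to 0.68, with a median of 0.22, and 44 pairs were above 0.1. CPM values are on TMM-scaled library sizes. RPKM was used for levels between genes. All 42 members are named. Full values follow the largest passing changes of each comparison (8 a direction for terminal against stem, 4 for the others) and the highest and lowest level of each role, with further members by value; of other lists, at most 4 passing genes are named. The scripts were tested on simulated data.

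Alternatives were DESeq2 1.42.0 (size factors, and its Wald test), limma 3.58.1 on log2(RPKM + 1) and log2(RPKM + 0.1), no filter on low counts, fits on the libraries compared only, 1 value per day, no day block, no day 1, no day 20, no E42 Anterior, E77 Occipital against E42 Posterior alone, each library left out in turn, and a length trend removed per library, the last chosen after seeing the data. No sequences were used here, and the values of 1 listed gene are not reported here.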

Additional observations from a re-analysis of the deposited data

Results flagged for a closer look

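Each of the 42 genes was checked in the terminal libraries of both E77 series. In 4 of these 84 checks, 1 library stood far from the others, where chance gives about 1 in 20. In 3 of the 4 it was the same library. On day 11 of E77 Occipital, KMT2C had 689 CPM, ASH1L 441 and NF1 326, each the highest of the terminal libraries of that series. These 3 genes are longer than 8 kb, and 28 of the 42 members had 8 kb or more. In that library genes of 8 kb or more had a median deviation of 0.24 on the log2 scale, against -0.03 to 0.00 on the later days of the series. The part of length in these 3 values was not tested. ANK3 had 55.2 CPM on day 20 of E77 Frontal.

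The terminal against stem change differed between E77 and E42 by the test of the difference itself (edgeR quasi-likelihood, Benjamini-Hochberg adjusted) for 22 members. Of all genes tested, 13% had a larger and 13.2% a smaller change at E77. It was larger at E77 for SHANK1 (1.24), KDM6B (0.61), RAI1 (0.53), SHANK2 (0.53), BCL11A (0.48), CHD3 (0.29) and MED13L (0.20). It was smaller at E77 for the synapse and membrane genes ANK3 (-2.30), DSCAM (-1.12), ANK2 (-0.58) and SHANK3 (-0.35), for NF1 (-0.33) and TNRC6B (-0.64), and for the transcription factors MEF2C (-0.87) and AUTS2 (-0.38). Among chromatin regulators it was smaller for KMT2C (-0.59), NSD1 (-0.54), KMT2A (-0.48), ASH1L (-0.42), MBD5 (-0.41), CHD2 (-0.34) and ADNP (-0.25). The call for AUTS2 ended in 21 and that for MBD5 in 8 of the 38 fits without 1 library. With the length trend removed, 5 of the 15 members with a smaller change still passed, and TNRC6B stood at -0.056. SHANK1 turned to -0.379 between E77 Occipital and E42 Posterior alone, and to -0.015 with limma on log2(RPKM + 1).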

How the results depend on the processing

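Counts are given as members higher or lower. With 1 value per day, terminal against stem had 2 lower (regulators 2), transition against stem 14 higher, and terminal against transition 7 higher and 0 lower. With the length trend removed, terminal against stem had 11 lower (regulators 8, synaptic and signalling genes 1), transition against stem 10 lower and terminal against transition 10 lower. By series, E77 Occipital then had 13 lower, E77 Frontal 3 lower, E42 Posterior 13 higher and 11 lower, and E42 Anterior 11 higher and 8 lower. For age it gave 3 and 28 in the stem phase and 11 and 5 for the change, and 7 higher for E42 regions. Without E42 Anterior, transition against stem had 2 lower. With limma at pseudocounts of 1 and 0.1, terminal against transition had 9 and 9 lower, E77 Frontal 2 and 2 lower, E77 Occipital 10 and 10 lower, age in the terminal phase 2 and 2 higher, the change with age 2 and 4 higher, E42 regions 1 and 2 higher, and E77 regions 12 and 13 lower. At a pseudocount of 1, 4384 of 17827 genes were lower in E77 Frontal and 4074 in E77 Occipital. Age in the terminal phase then had 4100 genes higher and E77 regions 2181 lower. On only the libraries compared, E42 Posterior had 1, E77 Frontal 2 and E77 Occipital 3 lower, and age in the terminal phase 1 higher. Over all genes those calls numbered 3676 of 18381, 3755 of 18602, 2678 of 18375 and 4197 of 19671. E77 Frontal had 2 lower with the DESeq2 Wald test and 2 without day 20, against 4555 of 20794 and 3811 of 20770 genes tested. E77 Occipital against E42 Posterior alone gave 8 lower in the stem phase and 1 higher for the change. Without the replicate block, the change with age had 2 higher and E77 regions 13 lower. Reversed values were FOXP1 for age in the stem phase (0.010, those series alone), SHANK1 for the change with age (-0.379 there and -0.015 with limma on log2(RPKM + 1)) and SHANK2 (-0.022 with that limma fit). The causes were not tested.

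Leaving out 1 library at a time gave, for higher and lower, 24 to 27 and 6 to 7 for terminal against stem, 20 to 25 higher for transition against stem, 10 to 11 and 4 to 8 for terminal against transition, 14 to 21 and 1 for E42 Anterior, 19 to 23 and 1 to 3 for E42 Posterior, 17 to 21 and 1 to 3 for E77 Frontal, and 10 to 15 and 3 to 12 for E77 Occipital. For age it gave 11 to 13 and 14 to 19 in the stem phase, 0 to 2 and 12 to 17 in the terminal phase, and 4 to 8 and 10 to 15 for the change. For regions it gave 4 to 6 and 17 to 21 at E42, and 4 and 17 to 26 at E77. Over all genes, limma on log2(RPKM + 1) shifted the split of higher and lower calls from 4713 and 4000 to 3490 and 4558 for terminal against transition, from 5985 and 6529 to 6183 and 4441 for age in the stem phase, from 2700 and 2747 to 1899 and 3139 for the change with age, and from 5209 and 6293 to 3429 and 8020 for E42 regions. Depth limits the members with low counts, the lowest being 27 for SHANK1 and 35 for DSCAM in single libraries.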
